A study of Mus musculus with 6 samples.

Results

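The interferon-stimulated and nucleic acid sensing genes examined here were 37 mouse genes chosen by symbol, and all 37 were found among the 52089 symbols of the table. A total of 36 had a mean level of at least 1 RPKM (a read count corrected for transcript length and library depth) and were tested among 11701 genes, and *Tlr9* lay below this level. The libraries were made from primary brite adipocytes, the thermogenic fat cells that form in white adipose tissue. The stromal-vascular cells came from inguinal fat of 129SvEv mice, which the methods describe as male and a few weeks old, and had 2 days of induction and 1 day of differentiation with rosiglitazone. In the *Ctcflos* KD group, 3 libraries came from cells reverse transfected with 50 nM of an LNA gapmer against the long noncoding RNA *Ctcflos*, and in the NC ctrl group 3 libraries came from cells given 50 nM of a nontargeting LNA gapmer. Cells were harvested 24 h after transfection.

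Both groups thus carried a synthetic oligonucleotide, a lipid transfection reagent and rosiglitazone. For the induction of brite adipocytes, the study's methods also list dexamethasone, indomethacin, isobutylmethylxanthine, insulin and triiodothyronine. No untransfected cells and no other gapmer against *Ctcflos* were part of these 6 libraries. An effect of the loss of *Ctcflos* and an effect of this one gapmer sequence cannot be told apart here, and a response common to both gapmers does not appear in the comparison. The comparison asks whether genes of the innate response to nucleic acids differed between the cells with the targeting and those with the control gapmer. The labels do not say that replicates are separate cultures, so p-values measure the spread between these libraries, which may be technical.

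Cells recognize foreign or misplaced nucleic acids by sensors in the cytosol (RIG-I, MDA5, cGAS, PKR) and in endosomes (TLR3, TLR9). Of these, RIG-I and MDA5 act through the adaptor MAVS and cGAS through STING, by way of the factors IRF3 and IRF7, on the genes of type I interferons. Secreted interferon binds its receptor, and the kinases JAK1 and TYK2 activate a complex that contains STAT2 and IRF9 and binds the interferon-stimulated response element (ISRE) in promoters of antiviral genes. Adipocytes and their progenitors express several of these sensors and respond to interferon.

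The RefSeq promoter windows, which reach from 250 bases before to 50 bases after a gene start (GRCm38.p6), were available for 29 of the 37 genes. A core of the ISRE, GAAANNGAAA on either strand, was found in 13 of 29 windows (44.8%), against 3.99% of 27025 genes with a window. These 13 genes were *Isg15*, *Ifit1*, *Ifit3*, *Ifih1*, *Ddx58*, *Oas1a*, *Rsad2*, *Stat2*, *Bst2*, *Gbp2*, *Gbp3*, *B2m* and *Eif2ak2*. The GAS core TTCNNNGAA, the gamma-activated sequence, was found in 8 windows (27.6%, against 9.55% of genes), and its letters can overlap those of the ISRE core. The NF-kB motif GGGANTTTCC was found in the windows of *B2m* and *Tlr3* (6.9%, against 0.466% of genes). A match describes these letters only and does not show that a factor binds there.

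The stretch around the ISRE core is shown for 4 genes, of which *Isg15* and *Ifit1* were among the most abundant and *Rsad2* and *Gbp2* among those with the largest differences between libraries. All 4 stretches lie upstream of the annotated gene. They are written 5′ to 3′ on the strand of the gene, and capitals mark the bases of the core, which appears as paired runs of GAAA, or of TTTC where the core lies on the other strand.
Isg15, chr4:156200861-156200910, minus strand: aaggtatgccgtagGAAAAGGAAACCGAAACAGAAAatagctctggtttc
Ifit1, chr19:34640784-34640833, plus strand: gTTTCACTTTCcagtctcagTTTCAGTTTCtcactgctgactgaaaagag
Rsad2, chr12:26456543-26456592, minus strand: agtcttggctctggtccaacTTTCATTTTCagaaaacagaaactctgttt
Gbp2, chr3:142620584-142620633, plus strand: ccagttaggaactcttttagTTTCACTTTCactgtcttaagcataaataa
*Isg15* held 3 overlapping cores, centred between 61 and 73 bases upstream of the start, and *Ifit1* held 2 separate cores at 80 and 99 bases. The single cores of *Rsad2* and *Gbp2* lay 115 and 54 bases upstream.

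**Figure D1:**
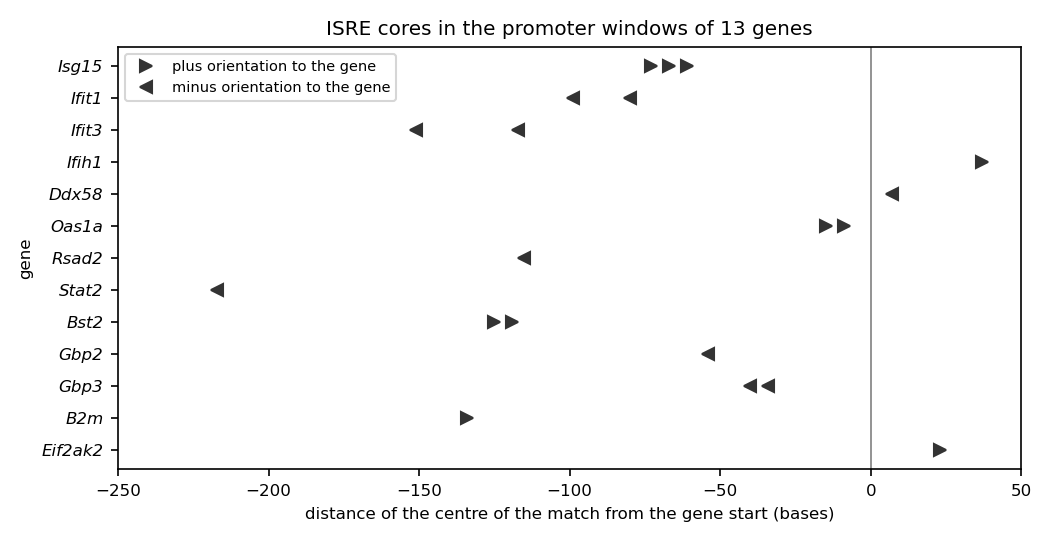
Matches of the ISRE core in the promoter windows of 13 genes; the horizontal axis is the distance in bases of the centre of each match from the gene start, and triangles point right for matches on the strand of the gene and left for the other strand. Most matches lie upstream of the start, and those of *Ifih1*, *Ddx58* and *Eif2ak2* lie downstream of it.

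The depth recovered from the values was 60.8 to 75.5 mio mapped reads in KD and 62.9 to 79.2 mio in control libraries. *Ctcflos*, listed as 1300015D01Rik, stood at 0.0969, 0.0705 and 0.21 RPKM in KD replicates 1, 2 and 3 and at 0.748, 0.751 and 0.84 RPKM in control replicates 1, 2 and 3, and the order of replicates is the same wherever values are listed below. The KD libraries lay below all controls and kept 16.1% of the control mean (log2 fold change on the log2(RPKM + 1) scale -0.66, SE 0.084, adjusted p = 0.025, limma over all genes of any level), and the log2 fold change was -2.01 at a pseudocount of 0.1. The exact two-sided permutation test gave p = 0.1, the smallest that 3 against 3 libraries allow. When single libraries were left out, *Ctcflos* was called only without KD replicate 3 (adjusted p = 0.0097, limma), with an adjusted p of up to 0.13 otherwise. Adipocyte markers were abundant, with a summed level over 8 genes of 4680 to 6190 RPKM in KD and 6350 to 7030 RPKM in controls, and of these *Cebpa* was called lower in KD. A gene was called at an adjusted p under 0.05 in limma, a linear model fitted to all genes tested.

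In control cells, which also received a gapmer, the interferon genes were abundant. The median of their control means was 26.7 RPKM against 3.94 RPKM over all genes tested, and 17 of 36 lay in the top 10% of genes. *Ifit3*, *Isg15*, *B2m* and *Ifit1* lay in the top 1%, at 533 ± 113, 366 ± 54.9, 317 ± 69.5 and 280 ± 57.6 RPKM (SD, n = 3). The lowest tested genes of the set were the constitutive factor *Irf3* at 5.05 ± 0.498 RPKM and *Irf1* at 6.5 ± 1.52 RPKM. These levels are means over all accessions of a symbol. Single RefSeq mRNA accessions of *Irf1* ranged from 2.5 to 20.5 RPKM in controls, so its rank depends on this averaging. *Tlr9*, the endosomal receptor for unmethylated CpG DNA, stood at 0.00948 to 0.0229 RPKM in KD and 0.00916 to 0.0222 RPKM in controls. Its groups overlapped, and a difference was not detectable at this depth.

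Over all 6 libraries, no gene of the set was called higher in KD and 1 of 36, *Eif2ak2*, was called lower by limma, while 24% of all genes tested were called, 11.5% higher and 12.4% lower. At an unadjusted p under 0.05 stood 7 of 36, 5 of them higher and 2 lower in KD, against 38.9% of all genes. The log2 fold change was positive in 26 of 36 (53.2% of all genes), with a median of 0.28 against 0.028 over all genes. KD and control libraries did not overlap in 6 of 36, against 44.8% of all genes, with 2 higher (22.9% of all genes) and 4 lower in KD (21.9% of all genes).

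This average hid a wide spread within the KD group. KD replicates 1 and 2 lay above every control in 27 of 36 genes (35.5% of all genes), while KD replicate 3 lay below every control in 22 (38% of all genes), within their range in 12 (28.8%) and above them in 2 (33.2%). KD replicate 3 was the lowest KD library in 33 of 36 (45.6% of all genes), and control replicate 2 the lowest control in 34 of 36 (51.3% of all genes). The median SD of the log2 level within KD was 0.552 for these genes against 0.169 for all genes, and within controls 0.247 against 0.102. Across genes, the deviations of KD replicate 3 and of control replicate 2 from their group means correlated with r = 0.795 over the 36 genes and with 0.419 over 11701 genes. These values describe genes of the same libraries, which are not independent replicates.

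**Figure D2:**
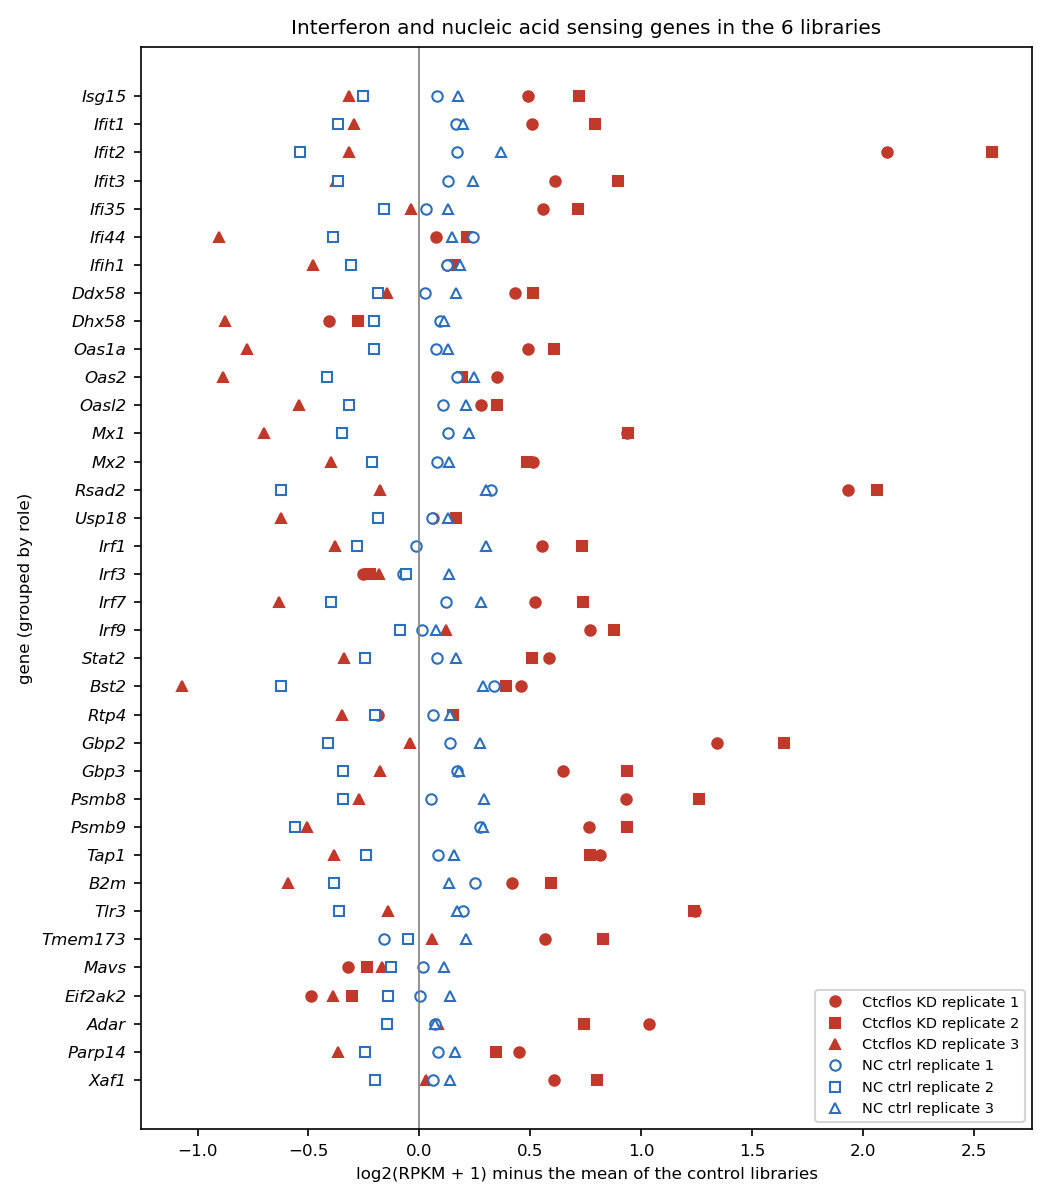
Level of each of the 36 tested genes in each library, as log2(RPKM + 1) minus the mean of the 3 control libraries, with KD libraries filled and control libraries open; circles, squares and triangles are replicates 1, 2 and 3. KD replicates 1 and 2 lie to the right of all controls in 27 genes, and KD replicate 3 is the lowest KD library in 33.

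Because of this spread, the counts are given also without KD replicate 3. That library was picked for its low levels in these same genes. Calls made without it, here and below, are therefore a description and not a test. Without it, 24 of 36 genes were called (41.1% of all genes), 23 of them higher (23.3% of all genes) and 1 lower (17.8% of all genes). The median log2 fold change was 0.62 against 0.051 over all genes. The groups did not overlap in 31 of 36 (63% of all genes), in 27 that were higher (35.5% of all genes) and in 4 that were lower in KD (27.5% of all genes). Without any one of the other 5 libraries, limma called 0 of 36. In these fits 2 to 4 of 36 had an unadjusted p under 0.05 in limma, against 28.4% to 34% of all genes. The median log2 fold change of the set lay between 0.099 and 0.37. Of all genes, 10.1% and 9.31% were called without KD replicates 1 and 2 and 3.6%, 13.5% and 3.16% without control replicates 1, 2 and 3. With all libraries, limma called 2 of 34 genes of the set from RefSeq mRNA accessions alone (30.4% of all genes), 1 from the highest accession (23.5%) and 1 after scaling by the median of ratios (21.3%). It called 0 at a pseudocount of 0.1 (23.5%), 0 with no filter on low values (4.71%) and 0 with the replicate number as a block (14.3%). KD replicate 3 also kept the most *Ctcflos*, at 0.269 of the control mean against 0.124 and 0.0904 in KD replicates 1 and 2. Its depth of 60.8 mio reads was the lowest of all libraries, while control replicate 2 with 79.2 mio was the deepest. Whether remaining *Ctcflos* or depth had a part in the level of these genes was not tested.

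Markers of other cell types differed between the same libraries. The macrophage list, with 7 of 8 genes in the table, summed to 7.52, 7.43 and 18.2 RPKM in KD and to 9.97, 30.1 and 9.76 RPKM in controls. *Lyz2*, the macrophage lysozyme, stood at 1.24, 1.7 and 12.8 RPKM in KD and 7.41, 24.5 and 6.9 RPKM in controls, and *Tyrobp*, a signaling adaptor of myeloid cells, at 0.0234, 0.0471 and 0.844 RPKM and 0.408, 0.937 and 0.197 RPKM. Both were thus highest in KD replicate 3 and in control replicate 2, the libraries with the lowest levels of interferon genes. *Mrc1* and *Fcer1g*, both under 1 RPKM in all libraries, had the same order, and the other genes of the list differed from it. *Csf1r* stood at 1.31, 1.48 and 1.1 RPKM in KD and 0.269, 0.833 and 0.438 RPKM in controls, and *Cd14* at 0.606, 0.586 and 0.58 RPKM and 0.726, 0.932 and 1.05 RPKM. *Cd68*, another gene of the list, was called higher in KD (adjusted p = 0.023, limma), with 4.12, 3.44 and 2.16 RPKM against 0.657, 1.92 and 0.664 RPKM. The smooth muscle actin *Acta2* was likewise highest in KD replicate 3 and in control replicate 2, with 17.2, 22.8 and 48.2 RPKM in KD and 31.6, 83.6 and 38.8 RPKM in controls. The other genes of the smooth muscle list lay under 1 RPKM. Of these *Myh11* had the same order, *Rgs5* was highest in KD replicate 2 and control replicate 1, and *Des* in KD replicate 1 and control replicate 2. The progenitor and fibroblast list summed to 401, 418 and 201 RPKM in KD and 446, 301 and 476 RPKM in controls, most of it from *Ly6a*, which is itself inducible by interferon. Of this list *Pdgfra* was called lower in KD (12.2, 13.1 and 14 RPKM against 21, 19.7 and 24.6 RPKM, adjusted p = 0.01, limma). It was highest in KD replicate 3 within the KD group, but lowest in control replicate 2 within the controls. Endothelial markers summed to at most 1.45 RPKM and epithelial and mesothelial markers to at most 0.188 RPKM in any library. The part of other cell types in the levels of the interferon genes was not tested, and in bulk RNA more cells of a type and more RNA per cell cannot be told apart. Of the 4 markers of plasmacytoid dendritic cells, the professional interferon producers, *Siglech* was listed at 0 in all libraries. The others were present over the 6 libraries, *Bst2*, itself a gene of the set, at 26.9 to 79.6 RPKM, *Tcf4* at 3.05 to 4.51 RPKM and *Ccr9* at 0.125 to 0.208 RPKM. The pan-leukocyte gene *Ptprc* did not exceed 0.0486 RPKM in any library.

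Among the antiviral effectors, *Ifit2*, *Rsad2* and *Gbp2* showed the largest log2 fold changes of the set. *Ifit2* encodes a protein of the IFIT family that binds viral RNA and blocks its translation, and stood at 189, 262 and 34.3 RPKM in KD and at 48.5, 29.3 and 55.8 RPKM in controls. KD replicates 1 and 2 lay 4.23 and 5.88 times as high as the control mean, whereas KD replicate 3 lay within the range of the controls. The mean difference was 1.46 on the log2 scale with an SE of 0.668 and did not pass the test (adjusted p = 0.15, limma). *Rsad2*, encoding viperin, a radical SAM enzyme that makes a chain-terminating nucleotide, stood at 393, 430 and 90.1 RPKM in KD and at 128, 66 and 126 RPKM in controls. Again 2 KD libraries lay above all controls and KD replicate 3 among them (log2 fold change 1.27, SE 0.568, adjusted p = 0.14, limma).

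*Gbp2*, a guanylate-binding protein that attacks membranes of intracellular pathogens, stood at 107, 132 and 40.4 RPKM in KD and 45.9, 31 and 50.4 RPKM in controls, with KD replicates 1 and 2 above all controls, KD replicate 3 among them and an adjusted p of 0.11 from limma. Without KD replicate 3, which was picked for its low levels in such genes, the log2 fold changes were 2.34 for *Ifit2*, 2 for *Rsad2* and 1.49 for *Gbp2*. Over the fits that left out a single library, the lowest were 0.89, 0.87 and 0.65. The other IFIT genes were far more abundant and differed less. *Ifit3* stood at 803, 978 and 404 RPKM in KD against 573, 406 and 620 RPKM, and *Ifit1* at 393, 479 and 225 RPKM against 310, 214 and 317 RPKM. *Isg15*, the ubiquitin-like modifier, stood at 511, 599 and 292 RPKM against 384, 305 and 410 RPKM. In these 3 genes KD replicates 1 and 2 lay above all controls and KD replicate 3 near or below the lowest control, and the log2 fold changes of 0.3 to 0.38 did not pass the test in all 6 libraries.

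**Figure D3:**
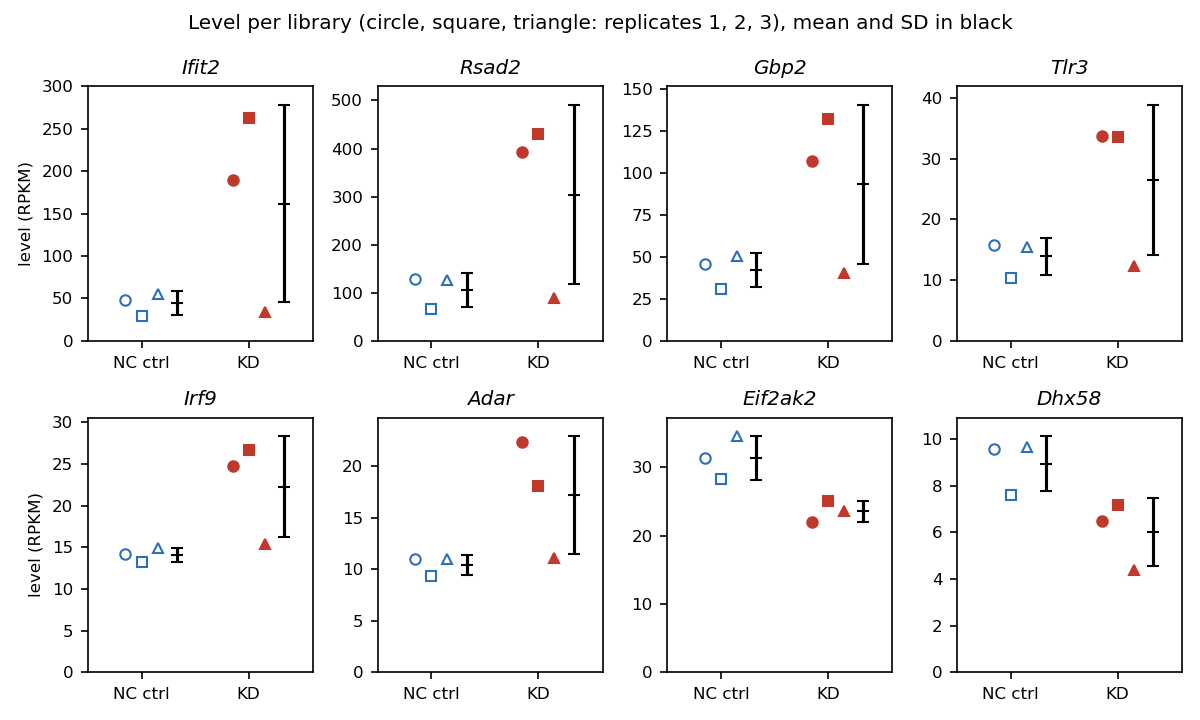
Levels in RPKM of 8 genes of the set in each library, with controls open and KD filled, circles, squares and triangles for replicates 1, 2 and 3, and the mean ± SD (n = 3) in black beside each group. KD replicate 3 lies near the controls in *Ifit2*, *Rsad2*, *Gbp2*, *Tlr3*, *Irf9* and *Adar*, whereas all KD libraries lie below the controls in *Eif2ak2* and *Dhx58*.

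Of the other effectors, the GTPase *Mx1* stood at 50.6, 50.9 and 15.6 RPKM in KD against 28.5, 20.2 and 30.5 RPKM, and *Mx2* at 30.2, 29.6 and 15.6 RPKM against 22.1, 17.9 and 23 RPKM. In both, KD replicate 3 was the lowest of all 6 libraries. Both had a RefSeq accession for a noncoding RNA and none for an mRNA, so these levels do not show that a functional GTPase is made. The genes of the oligoadenylate synthetase family, named for the enzymes that make the activator of RNase L, had log2 fold changes of 0.1 (*Oas1a*), -0.11 (*Oas2*) and 0.028 (*Oasl2*, -0.022 after scaling by the median of ratios), and none passed the test. *Xaf1*, a proapoptotic factor, had a log2 fold change of 0.48 with an unadjusted p of 0.0498 and an adjusted p of 0.13 from limma, and *Gbp3*, *Ifi35* and *Parp14* had 0.47, 0.41 and 0.14. The tetherin gene *Bst2*, the chaperone *Rtp4*, *Ifi44* and *Usp18*, the protease that removes ISG15 and restrains the receptor, had log2 fold changes of -0.075, -0.13, -0.21 and -0.13, and none passed the test. Without KD replicate 3, *Mx1*, *Mx2*, *Oas1a*, *Xaf1*, *Gbp3* and *Ifi35* were called higher, and *Oas2*, *Oasl2*, *Parp14*, *Bst2*, *Rtp4*, *Ifi44* and *Usp18* were not called. The counting could split reads between near-identical copies in the OAS, IFIT, Mx and GBP families, so their values are uncertain by gene.

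In the genes of the immunoproteasome and of antigen presentation, KD replicate 3 was again the lowest KD library and control replicate 2 the lowest control. *Psmb8*, a catalytic subunit of the immunoproteasome, stood at 46, 57.9 and 19.4 RPKM in KD against 24.5, 18.4 and 29.1 RPKM. The peptide transporter *Tap1* stood at 34.2, 33.1 and 14.3 RPKM against 20.2, 15.9 and 21.3 RPKM, and the light chain of MHC class I, *B2m*, at 416, 471 and 206 RPKM against 371, 238 and 342 RPKM. KD replicates 1 and 2 lay above the controls in each, and in *Tap1* and *B2m* KD replicate 3 was below all controls. The log2 fold changes of *Psmb8*, *Psmb9*, *Tap1* and *B2m* were 0.64, 0.4, 0.4 and 0.14, and none of the 4 passed the test over all libraries, while all but *B2m* were called higher without KD replicate 3.

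The transcription factors differed among themselves. *Irf9*, the DNA-binding subunit of the interferon-activated complex, stood at 24.7, 26.7 and 15.4 RPKM in KD and at 14.2, 13.2 and 14.9 RPKM in controls. All KD libraries lay above all controls, although KD replicate 3 only by a small margin (log2 fold change 0.59, SE 0.196, adjusted p = 0.061, limma). *Irf7*, which amplifies interferon production, stood at 97.1, 113 and 43 RPKM against 73.2, 50.9 and 81.8 RPKM, so that KD replicate 3 was the lowest of all libraries. *Stat2* and *Irf1* had log2 fold changes of 0.25 and 0.3, with KD replicate 3 below all controls. *Irf3*, the factor that is activated by phosphorylation rather than by its amount, stood at 4.07, 4.17 and 4.32 RPKM against 4.74, 4.79 and 5.63 RPKM. Its KD libraries lay below all controls, with a log2 fold change of -0.22 that did not pass the test (adjusted p = 0.14, limma).

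The sensors and their adaptors also split. *Tlr3*, the endosomal receptor of double-stranded RNA, stood at 33.7, 33.6 and 12.3 RPKM in KD and 15.8, 10.4 and 15.5 RPKM in controls. KD replicate 3 lay among the controls, and the log2 fold change of 0.78 did not pass the test (adjusted p = 0.15, limma). *Ddx58*, encoding RIG-I, and *Ifih1*, encoding MDA5, had log2 fold changes of 0.27 and -0.064. *Dhx58*, encoding LGP2, a relative of both that lacks the signaling domains, stood at 6.47, 7.17 and 4.39 RPKM against 9.56, 7.59 and 9.68 RPKM. The KD libraries of *Dhx58* lay below all controls (log2 fold change -0.52, SE 0.172, adjusted p = 0.061, limma), and the call depended on the accessions and the scaling used. The adaptor of DNA sensing *Tmem173*, encoding STING, stood at 10.7, 13 and 7.22 RPKM against 6.06, 6.63 and 8.13 RPKM, and *Mavs*, the adaptor of RIG-I and MDA5, at 6.44, 6.91 and 7.29 RPKM against 8.42, 7.51 and 9.05 RPKM. The groups of *Tmem173* overlapped, those of *Mavs* did not, and neither gene passed the test (adjusted p = 0.11 and 0.14, limma).

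*Eif2ak2* and *Adar* both encode enzymes that bind double-stranded RNA, and they differed in opposite directions. *Eif2ak2*, encoding PKR, the kinase that stops translation, stood at 22, 25.1 and 23.6 RPKM in KD and at 31.3, 28.2 and 34.5 RPKM in controls. All KD libraries lay below all controls, and the log2 fold change of -0.4 (SE 0.122) passed the test by a narrow margin (adjusted p = 0.0498, limma). The call was kept in 2 of 12 alternative settings, in which limma gave adjusted p-values between 0.037 and 0.2, and it was lost without each library other than KD replicate 3. *Adar*, encoding the RNA editing enzyme that marks double-stranded RNA as self, stood at 22.4, 18.1 and 11.1 RPKM in KD and 11, 9.33 and 11 RPKM in controls. Its KD libraries lay above all controls, KD replicate 3 only narrowly, and the log2 fold change was 0.62 (SE 0.225, adjusted p = 0.079, limma).

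**Figure D4:**
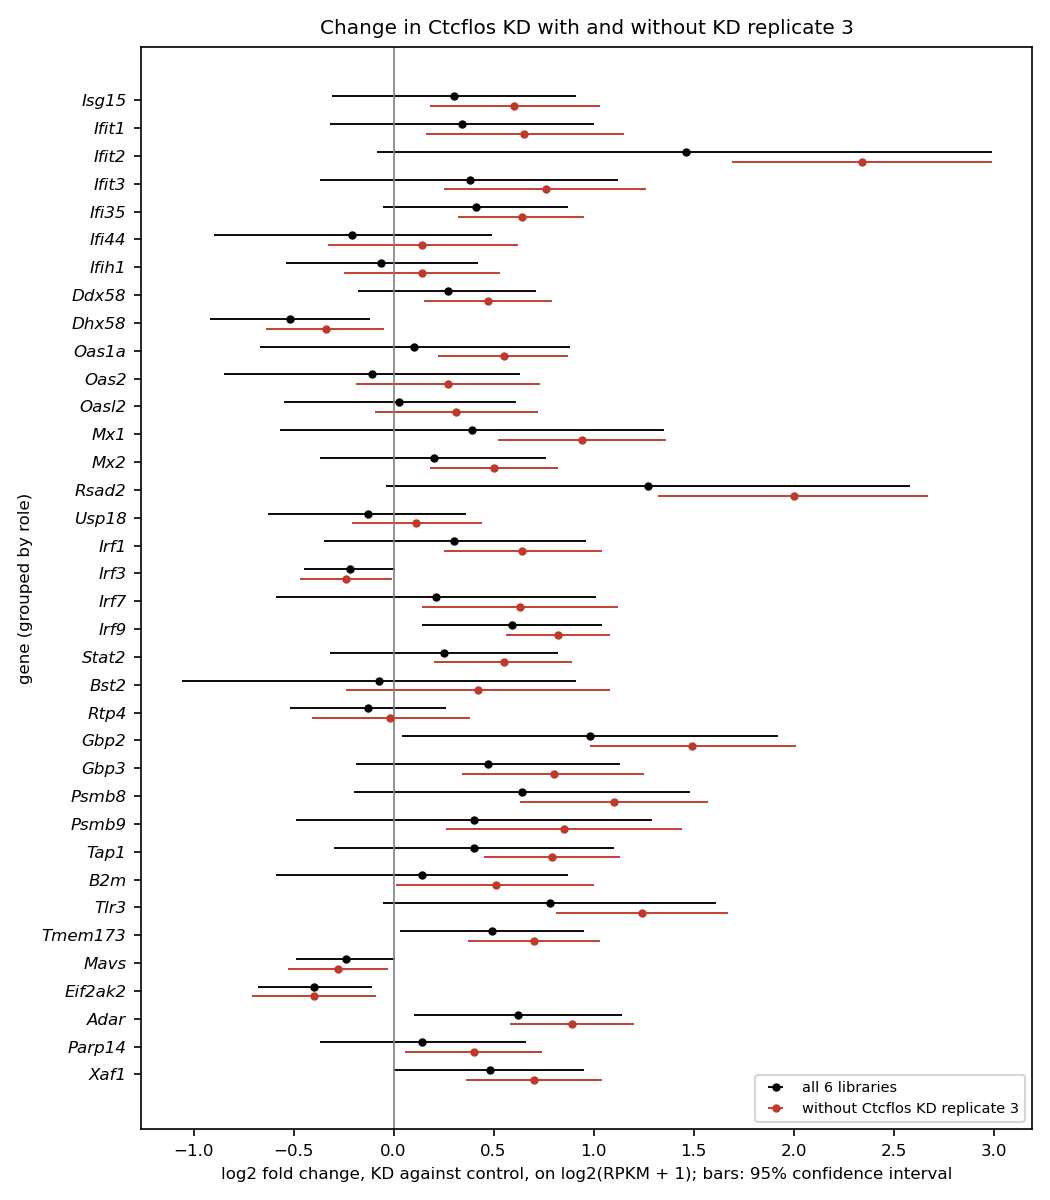
Log2 fold change of KD against control on the log2(RPKM + 1) scale for the 36 tested genes, with 95% confidence intervals from limma, over all 6 libraries (black) and without KD replicate 3 (red). Without KD replicate 3 most intervals narrow and move to the right. The intervals of *Dhx58* and *Eif2ak2* lie left of 0 in both fits, and those of *Irf3* and *Mavs*, which reach 0.0057 and 0.0059 over all libraries, lie left of 0 without KD replicate 3.

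Genes of the set with an ISRE core in the promoter window had a median log2 fold change of 0.27 (13 genes), and those with a window but no core had 0.4 (15 genes tested). Without KD replicate 3 the medians were 0.55 and 0.7. Of the genes with the largest log2 fold changes, *Rsad2* and *Gbp2* held an ISRE core, while the window of *Ifit2* held a GAS core and no ISRE core.

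Beyond the set, 142 other genes of the pathway were listed, of which 138 were in the table and 114 were tested. Of these, 4 were called higher (11.5% of all genes) and 10 lower in KD (12.4% of all genes) by limma, with a median log2 fold change of 0.19. Without KD replicate 3 it was 51 higher (23.3% of all genes) and 13 lower (17.8% of all genes). Over all 6 libraries, 33 of 114 had an unadjusted p under 0.05 in limma (38.9% of all genes). These shares of all genes are the background of the list counts that follow.

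Of 7 receptor kinases, STAT and IRF factors, 1 was called higher and 1 lower, with and without KD replicate 3. The receptor kinase *Jak1* was lower in KD, with 5.09, 3.57 and 4.48 RPKM against 8.66, 6.79 and 8.12 RPKM (log2 fold change -0.72, adjusted p = 0.013, limma). Of the factors of the IRF family outside the set, *Irf5*, which acts downstream of Toll-like receptors, was higher in KD, with 6.3, 6.18 and 3.36 RPKM against 2.02, 2.09 and 1.82 RPKM (log2 fold change 1.04, adjusted p = 0.011, limma), and the log2 fold change was 0.46 from its highest accession. Its KD libraries all lay above the controls, with KD replicate 3 the lowest of them. Of the receptor subunits, *Ifnar1* stood at 4.64 ± 0.235 RPKM in KD and 5.17 ± 0.407 RPKM in controls and *Ifnar2* at 4.52 ± 1.15 and 4.37 ± 0.415 RPKM (SD, n = 3), and neither passed the test.

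Among adaptors and kinases of sensing, 1 of 11 tested was called higher and 2 lower, and 6 higher and 3 lower without KD replicate 3. *Rnf135*, the ubiquitin ligase that activates RIG-I, was higher in KD (13.1, 12 and 6.23 RPKM against 5.08, 4.11 and 5.54 RPKM; adjusted p = 0.033, limma). *Irak1*, a kinase of Toll-like receptor signaling, was lower, with 0.961, 0.882 and 1.66 RPKM against 3.43, 3.5 and 3.21 RPKM (log2 fold change -1.03, adjusted p = 0.0052, limma), and *Tank* was lower with a log2 fold change of -0.35 (adjusted p = 0.0489, limma). Among 10 other sensors, 1 was called higher and 2 lower, and 4 higher and 3 lower without KD replicate 3. *Mb21d1*, encoding the DNA sensor cGAS, was higher, with 1.72, 1.37 and 1.55 RPKM in KD and 0.817, 0.88 and 0.604 RPKM in controls (log2 fold change 0.53, or 0.93 at a pseudocount of 0.1, adjusted p = 0.013, limma). Its control mean was 0.767 RPKM, so it passed the filter of 1 RPKM only through its KD libraries. In the fit without the filter, limma gave *Mb21d1* an adjusted p of 0.042. The helicases *Dhx36* and *Ddx41* were lower, with log2 fold changes of -0.38 and -0.43 (adjusted p = 0.039 and 0.02, limma). At a pseudocount of 0.1 the log2 fold change of *Ddx41* was -0.73. The KD mean of *Ddx41* was 0.914 RPKM, so this gene passed the filter only through its control libraries. In the fit without the filter *Ddx41* was not called (adjusted p = 0.056, limma).

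Of 35 other interferon-stimulated antiviral genes, none was called higher and 1 lower, with 6 at an unadjusted p under 0.05 in limma. Without KD replicate 3, 14 were called higher and 1 lower. The gene called over all libraries, *Parp12*, an ADP-ribosyltransferase, stood at 9.97, 10.3 and 9.66 RPKM in KD and 27.5, 20.7 and 27.9 RPKM in controls (log2 fold change -1.25, adjusted p = 0.0031, limma). Its KD libraries lay close together and below all controls, and KD replicate 3 did not stand apart from the other two. Of 14 interferon-induced GTPases, 0 were called by limma and 2 had an unadjusted p under 0.05, with a median log2 fold change of 0.48, while 12 were called higher without KD replicate 3. *Gbp5* had a negative log2 fold change of -0.44 and did not pass the test. Of the 4 tested interferon-induced chemokines 0 were called by limma and 0 had an unadjusted p under 0.05. Without KD replicate 3, it was 1 higher and 0 lower. *Cxcl10* stood at 210, 237 and 78.8 RPKM in KD against 131, 83.8 and 130 RPKM.

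Among 15 genes of antigen processing and MHC class I, none was called higher and 3 lower by limma, with 4 at an unadjusted p under 0.05, and 7 were called higher and 3 lower without KD replicate 3. The 3 lower over all libraries were the endoplasmic reticulum chaperones *Calr* and *Canx*, with log2 fold changes of -0.63 and -0.39, and the aminopeptidase *Erap1*, with -0.6 (adjusted p = 0.023, 0.0477 and 0.018, limma). Of 13 negative regulators and nucleases, 1 was called higher and 1 lower, and 5 higher and 2 lower without KD replicate 3. *Trim27* was higher (log2 fold change 0.59, adjusted p = 0.02, limma) and *Isg20l2*, a nucleolar exonuclease related to ISG20, lower (-1.26, adjusted p = 0.0049, limma). *Isg20l2*, *Irak1* and *Parp12* were called in all 13 settings, and *Irf5*, *Jak1* and *Mb21d1* in 11. *Erap1* was called in 9, *Calr* in 8, *Ddx41* and *Trim27* in 7, *Dhx36* and *Rnf135* in 6, *Canx* in 4 and *Tank* in 3.

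The interferons themselves lay under 1 RPKM and were taken from the fit without a filter, in which 1.96% of 38335 genes were called higher. *Ifnb1*, the first type I interferon made after sensing, stood at 0.877, 0.969 and 0.727 RPKM in KD and 0.333, 0.311 and 0.434 RPKM in controls. *Ifna4* stood at 0.761, 0.889 and 0.843 RPKM against 0.398, 0.314 and 0.346 RPKM. In both, all 3 KD libraries, KD replicate 3 included, lay above all controls, and both were called higher, with log2 fold changes of 0.45 (SE 0.0948, adjusted p = 0.0484, limma) and 0.44 (SE 0.0848, adjusted p = 0.041, limma). At a pseudocount of 0.1 the log2 fold changes were 1.06 and 1.04. Each was called in 4 of 12 settings, with an adjusted p of up to 0.18 for *Ifnb1* and 0.16 for *Ifna4*, and of the settings that left out a library, only the one without KD replicate 3 kept the call. Genes of the interferon alpha family are near copies, so reads of *Ifna4* can belong to its relatives. *Ifna2*, *Ifne* and *Ifng* did not exceed 0.115 RPKM in any library and were not called, with log2 fold changes of -0.039, 0.0096 and 0.01. *Ifnl2* and *Ifnl3* were listed at 0 in all libraries.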

How the data were processed

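RNA of 3 *Ctcflos* KD and 3 NC ctrl samples of primary brite adipocytes was sequenced from stranded total RNA libraries. The authors deposited 1 table of RPKM values per transcript accession, without replicates pooled, and how it was counted is not given in the sources used here. It held 168326 lines, of which 305 exact repeats were removed. The RPKM of a gene is the mean over all accessions of its symbol, and accessions of a gene share reads. Depth was recovered from low RPKM values of Ensembl transcripts, which were whole multiples of 1 read in 96.1 to 97% of values (tolerance 0.1 reads).

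Groups were compared with limma-trend (limma 3.58.1, R 4.3.3) on log2(RPKM + 1) for genes with a mean of at least 1 RPKM, with Benjamini-Hochberg adjustment over all genes tested and calls at an adjusted p under 0.05. Tests for counts, fixed in the design for a table of counts, were not used because the values are RPKM. A fold change on this scale understates the change of low genes. Genes under 1 RPKM came from the same fit without the filter. The fit was run on simulated data with the same spread for every gene and library. Such data do not represent genes with a wide spread within a group, as found here. Alternatives were a pseudocount of 0.1, no filter, scaling by the median of ratios, RefSeq mRNA accessions alone, the highest accession, the replicate number as a block, and leaving out each library. All 37 genes are named; per-library values are given for those called, those whose groups did not overlap and those that describe a role, and from each pathway list up to 3 called genes in each direction with the largest log2 fold change. Of the pathway genes considered beyond the set, 1 is not reported here and is not among the 142 listed. The genes and lists were chosen with earlier results of these data known. Promoter sequences are from RefSeq (GRCm38.p6), with motifs searched in Python 3.11.15. The sequences of the gapmers are not used here.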

Additional observations from a re-analysis of the deposited data

How the results depend on the processing

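Of all genes tested, 2803 were called; this number was 1807 without a filter, 1671 with the replicate block and 369 to 4810 when a library was left out. Of the 36 interferon genes, 1 was called. With RefSeq mRNA accessions alone 2 were called (*Dhx58* and *Eif2ak2*, lower). Without a filter, at a pseudocount of 0.1 and with the replicate block 0 were called. In these settings 7, 7 and 4 had an unadjusted p under 0.05 in limma, against 23.4%, 39% and 34.2% of all genes. When a library was left out 0 to 24 were called, the 24 without KD replicate 3. With the highest accession and with scaling, *Dhx58* was called in place of *Eif2ak2*. Of the other pathway genes, 14 were called, 8 without a filter, 9 with the replicate block and 3 to 64 when a library was left out, with 64 without KD replicate 3 and 3 without control replicate 1 or 3. The median log2 fold change of the set was 0.23 to 0.29 in the other settings and 0.099 to 0.62 when a library was left out. The replicate block left *Ctcflos* at a log2 fold change of -0.66 without a call, and it had -0.72 to -0.63 when a library was left out, being called only without KD replicate 3.

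The sign of *Oasl2* (0.028) turned with RefSeq mRNA accessions (-0.026), the highest accession (-0.076) and scaling (-0.022). When a library was left out, log2 fold changes ranged from -0.088 to 0.51 for *B2m*, -0.39 to 0.42 for *Bst2*, -0.42 to 0.14 for *Ifi44*, -0.22 to 0.14 for *Ifih1*, -0.056 to 0.63 for *Irf7*, -0.15 to 0.55 for *Oas1a*, -0.34 to 0.27 for *Oas2*, -0.13 to 0.31 for *Oasl2*, -0.011 to 0.4 for *Parp14*, -0.0086 to 0.002 for *Tlr9* and -0.28 to 0.11 for *Usp18*, so that their direction depended on single libraries. The cause was not tested.

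Same-numbered KD and control libraries did not all deviate together, with correlations of their deviations of 0.287, -0.288 and -0.418 for numbers 1, 2 and 3. KD replicate 1 correlated best with control replicate 1, and KD replicates 2 and 3 with control replicates 3 and 2 (0.504 and 0.419). Deviations from a mean of only 3 libraries depend on each other, so these correlations cannot decide whether equal numbers marked pairs. The replicate block took only equal numbers as pairs, and whether libraries were paired in another way was not tested.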
